A study of Homo sapiens with 18 samples.

Results

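ADCYAP1R1, PDE1B, CAMKV and CYS1 were among the genes whose mRNA levels differed most between U2OS-MycER cells with and without active MycER. They are 4 of the 23399 genes profiled by RNA-seq and were selected by their values in siCtrl cells at 48 h, where the first 3 stood at the top of the rises and CYS1 near the top of the falls. The 6 siCtrl libraries of that time point therefore chose the genes, and what they show is given below as a description with no test. The other 12 libraries played no part in the choice, and the tests of the 4 genes compare only groups of these. The estimate of spread behind each p-value and interval was drawn from all 18 libraries, including the 6 that chose the genes. U2OS is a human osteosarcoma cell line. U2OS-MycER cells received by retroviral transfer a fusion of Myc with the hormone-binding part of the estrogen receptor, which is inactive until 4-hydroxytamoxifen (OHT) is added. Cells were transfected with siRNAs against Renilla luciferase (siCtrl) or with a pool of siRNAs against RAD21, a cohesin subunit (siRAD21). With transfection they received ethanol or 400 nM OHT, and they were harvested after 24 or 48 h. This gave 8 groups, siCtrl, siCtrl OHT, siRAD21 and siRAD21 OHT at each time, with 3 libraries for siCtrl and for siCtrl OHT at 48 h and 2 for each of the others. All groups carry MycER, so that OHT acting through MycER and OHT acting by another route cannot be told apart.

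The 4 genes belong to signalling and to the primary cilium. ADCYAP1R1 encodes PAC1, the receptor for the neuropeptide PACAP, which couples to stimulatory G proteins and adenylyl cyclase and so raises cyclic AMP. PDE1B encodes a phosphodiesterase that degrades cyclic AMP and cyclic GMP when bound by calcium and calmodulin, and CAMKV encodes a vesicle-associated protein of the calmodulin kinase family that lacks kinase activity. All of these are best known from the brain. CYS1 encodes cystin, a lipid-modified protein of the ciliary membrane whose loss causes polycystic kidneys in mice. Myc is a transcription factor that pairs with MAX and binds E-boxes, of which CACGTG is the canonical form.

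Expression is given as eRPKM, exonic reads per kilobase of gene model scaled to library depth, which also allows levels to be compared between genes. The libraries held 9647501 to 12678599 reads on exons. The mRNA of the silenced gene RAD21 was at 15.5 to 18.6 eRPKM in the siRAD21 libraries of 24 h, against 66.4 to 72.2 in siCtrl libraries, and at 11.1 to 11.3 against 89.0 to 96.9 at 48 h. The siRAD21 OHT libraries of 48 h differed from each other by no more than sampling noise (chi-square per gene 0.973 over 8324 genes, z = -1.76), whereas most other pairs of a group gave 1.51 to 3.86. They were counted as 1 sample in means, with no SD, although the tests hold both. The siRAD21 pair of 24 h gave 1.02 (z = 1.09), or 1.05 (z = 2.92) with the lower noise that removal of PCR duplicates leaves, and was kept as 2 samples. Whether replicates came from separate cultures is not stated in the labels, and p-values measure the spread between these libraries. In bulk RNA a change in the number of expressing cells and a change in RNA per cell cannot be told apart.

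ADCYAP1R1 lies on the plus strand of chromosome 7 (GRCh37, chr7:31091923-31151088), PDE1B on the plus strand of chromosome 12 (chr12:54943385-54973023), CAMKV on the minus strand of chromosome 3 (chr3:49895421-49907368) and CYS1 on the minus strand of chromosome 2 (chr2:10196600-10221071). The 3 genes that rose together have promoters in the RefSeq table (GRCh38.p14), and their 250 bases before the first start are shown 5′ to 3′ on the strand of the gene, with CG dinucleotides in capitals, because E-box letters and CG-rich sequence are what a Myc-responsive promoter is usually searched for. Each of them matched a single place on its GRCh37 chromosome, chr7:31091673-31091922, chr12:54943135-54943384 and chr3:49907340-49907589.
ADCYAP1R1: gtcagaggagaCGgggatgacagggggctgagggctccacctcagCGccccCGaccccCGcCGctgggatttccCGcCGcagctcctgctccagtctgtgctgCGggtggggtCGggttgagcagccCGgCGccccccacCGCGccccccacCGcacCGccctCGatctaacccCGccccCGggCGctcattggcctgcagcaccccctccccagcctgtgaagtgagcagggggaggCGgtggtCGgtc
PDE1B: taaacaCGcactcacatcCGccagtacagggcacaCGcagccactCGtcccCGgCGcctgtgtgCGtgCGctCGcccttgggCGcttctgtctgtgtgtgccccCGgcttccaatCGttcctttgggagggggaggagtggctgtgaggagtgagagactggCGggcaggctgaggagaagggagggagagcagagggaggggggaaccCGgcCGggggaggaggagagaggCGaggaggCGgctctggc
CAMKV: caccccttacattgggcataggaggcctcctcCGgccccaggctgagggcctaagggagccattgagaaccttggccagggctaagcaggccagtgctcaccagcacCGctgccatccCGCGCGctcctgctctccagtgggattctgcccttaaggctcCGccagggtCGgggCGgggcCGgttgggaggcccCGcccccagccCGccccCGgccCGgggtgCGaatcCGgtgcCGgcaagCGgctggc
None of these windows holds CACGTG or the wider form CANNTG, whose letters read the same on both strands. Over 34788 RefSeq windows of this length, 6.31% held CACGTG and 61.8% held CANNTG, which includes CACGTG. PDE1B has other annotated starts, and the window before the third one holds CAGATG and CAGTTG. All of the printed windows were above the median of 11 in CG dinucleotides, with 21 for ADCYAP1R1 and 17 each for PDE1B and CAMKV. Among all windows these counts stood at percentiles 72.0, 63.2 and 63.2. The windows before the other annotated starts of PDE1B held 10 and 3 (percentiles 49.8 and 29.4). GC content of the printed windows was 74.0%, 67.6% and 71.6%, against a median of 58.0%. These letters describe the windows only and say nothing about binding of a factor.

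The values that chose the genes came first. In siCtrl cells at 48 h, ADCYAP1R1 was at 0.945 ± 0.267 eRPKM (mean ± SD, n = 3) without OHT and at 18.9 ± 0.60 (n = 3) with OHT, a difference of 3.76 on the scale of log2(eRPKM + 0.5). PDE1B was at 1.41 ± 0.120 and 23.8 ± 1.20 eRPKM (log2 difference 3.67), and CAMKV at 0.882 ± 0.112 and 16.6 ± 0.857 (3.63). CYS1 was at 5.11 ± 0.207 eRPKM without and 0.482 ± 0.109 with OHT (log2 difference -2.52). In a ranking of the 1800 genes that passed the thresholds given below, reached a mean of 5 eRPKM in either group and had no overlap between libraries, the first 3 genes took the top places among 885 rises, and CYS1 was second among 915 falls. Just outside them were G0S2 (0.942 and 16.7 eRPKM, log2 difference 3.59) among the rises and IGFBP5 (82.0 and 14.2 eRPKM, -2.49) among the falls, while MIR3125, at 11 and 1.72 eRPKM (-2.85), ranked above CYS1. Of all genes tested, 17.9% were differentially expressed in this contrast, and nothing is read from it for the selected genes.

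ADCYAP1R1 was nearly silent without OHT and became well expressed with it in every setting. Without OHT its eRPKM was 0.673 and 0.805 in siCtrl cells at 24 h, 0.786, 0.795 and 1.25 in siCtrl cells at 48 h, 0.707 and 0.929 in siRAD21 cells at 24 h, and 0.537 and 0.442 in siRAD21 cells at 48 h. With OHT it was 13.1 and 12.0, then 19.3, 18.2 and 19.3 in siCtrl cells at 24 and 48 h, and 15.0 and 15.1, then 21.5 and 22.0 in siRAD21 cells. The lowest library with OHT was thus far above the highest without it. The order of the group means with OHT was siCtrl at 24 h, siRAD21 at 24 h, siCtrl at 48 h and siRAD21 at 48 h, and the libraries of neighbours in that order did not overlap. Among the groups without OHT, the libraries of siCtrl at 24 h, siRAD21 at 24 h and siCtrl at 48 h overlapped, and those of siRAD21 at 48 h were the lowest. In reads, the values rest on 30 to 90 per library without OHT and 920 to 1441 with it.

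PDE1B showed the same contrast and the highest level of the 4 genes in siCtrl OHT cells. Its eRPKM without OHT was 1.4 and 2.02 in siCtrl cells at 24 h, 1.36, 1.32 and 1.54 in siCtrl cells at 48 h, 1.07 and 1.15 in siRAD21 cells at 24 h, and 0.581 and 0.337 in siRAD21 cells at 48 h. With OHT it was 22.3 and 23.6, then 22.9, 23.4 and 25.2 in siCtrl cells at 24 and 48 h, and 21.3 and 21.4, then 19.8 and 20.6 in siRAD21 cells. The 9 libraries with OHT lay within a narrow band from 19.8 to 25.2 eRPKM, whereas the lowest values without OHT were those of siRAD21 cells at 48 h, with only 24 and 13 reads. The siCtrl OHT libraries of 24 and 48 h overlapped.

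PDE1B shares 443 exon bases with PPP1R1A, which encodes an inhibitor of protein phosphatase 1 and lies on the opposite strand (chr12:54969171-54982443). The shared bases are from GENCODE models, with 7367 exon bases for PDE1B and 3984 for PPP1R1A. The lengths recovered from the eRPKM values were shorter, at 3783 and 1834 bases. How many of the shared bases were counted is not known. The library kit does not mark strand, so any reads counted on them cannot be assigned to either gene. PPP1R1A stayed below 2 eRPKM in every library and its mean was too low for the test. In siRAD21 cells it was at 1.20 and 1.25 eRPKM at 24 h and 1.5 and 0.909 at 48 h without OHT, and at 0.985 and 0.986, then 0.678 and 0.389 with OHT. Its levels were lower with OHT at both times, opposite to PDE1B.

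CAMKV differed most among the groups with OHT. Without OHT its eRPKM was 0.940 and 1.16 in siCtrl cells at 24 h, 0.845, 0.793 and 1.01 in siCtrl cells at 48 h, 0.668 and 0.769 in siRAD21 cells at 24 h, and 1.02 and 1.24 in siRAD21 cells at 48 h. With OHT it was 11.4 in both siCtrl libraries at 24 h and 15.8, 17.5 and 16.5 at 48 h, and in siRAD21 cells 13.7 and 13.6 at 24 h and 30.3 and 31.9 at 48 h. The last group stood apart from all others and held the highest value of any of the 4 genes, from 995 and 1064 reads. As for ADCYAP1R1, neighbouring groups with OHT did not overlap.

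CYS1, the gene that fell, had its highest and most variable levels without OHT. Its eRPKM was 2.05 and 2.44 in siCtrl cells at 24 h, 5.21, 5.25 and 4.88 in siCtrl cells at 48 h, 3.94 and 4.23 in siRAD21 cells at 24 h, and 6.2 and 5.66 in siRAD21 cells at 48 h, and the libraries of no pair of these groups overlapped. With OHT it was 0.389 and 0.416, then 0.467, 0.381 and 0.597 in siCtrl cells at 24 and 48 h, and 0.601 and 0.532, then 0.457 and 0.412 in siRAD21 cells. Neighbouring groups with OHT overlapped, and these values rest on 10 to 19 reads per library, so that their order cannot be resolved at this depth. The groups with OHT thus spanned 0.381 to 0.601 eRPKM, whatever the level of the matching group without OHT.

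**Figure D1:**
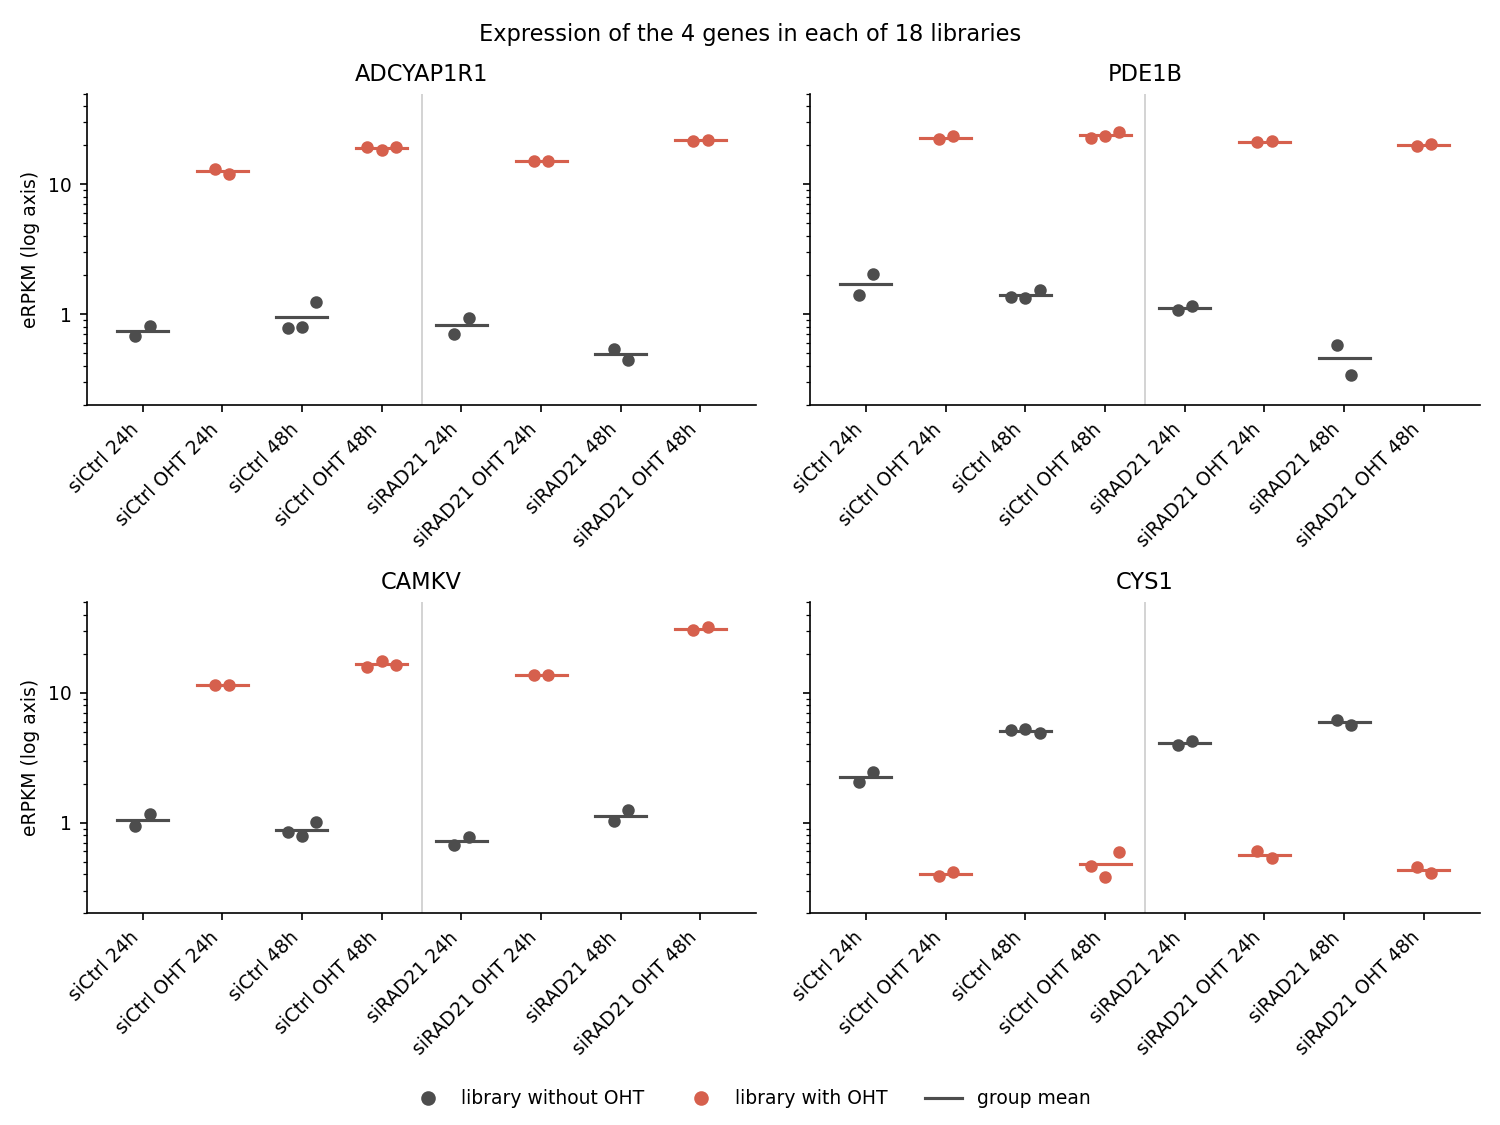
Expression of ADCYAP1R1, PDE1B, CAMKV and CYS1 in eRPKM (log axis) in each of the 18 libraries (points) of the 8 groups, with group means (lines) and libraries with OHT in red. For the first 3 genes every library with OHT lies above every library without it, and for CYS1 below. The siRAD21 OHT libraries of 48 h reach 30.3 and 31.9 eRPKM for CAMKV.

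To ask whether the change with OHT was also present in libraries that had not chosen the genes, OHT effects were tested in siCtrl cells at 24 h and in siRAD21 cells at 24 and 48 h. The test was limma on log2(eRPKM + 0.5) with Benjamini-Hochberg adjustment over the 14993 genes with a mean eRPKM of 1 or more. That mean was taken over all 18 libraries, including those that chose the genes. ADCYAP1R1 and CAMKV averaged 0.77 and 0.938 eRPKM without OHT and passed through their libraries with OHT. CYS1 averaged 0.472 eRPKM with OHT and passed through its libraries without OHT. Ranks and shares of genes called refer to the genes that passed this filter. A gene was called when its adjusted p was below 0.05 and its log2 fold change was past 0.5 in either direction. ADCYAP1R1, PDE1B and CAMKV rose and CYS1 fell in all of these settings.

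In siRAD21 cells at 48 h, ADCYAP1R1 rose by a log2 fold change of 4.50 (95% confidence interval 4.20 to 4.79, adjusted p = 3.18e-11, limma) and PDE1B by 4.44 (4.16 to 4.72, adjusted p = 2.37e-11, limma). CAMKV rose by 4.28 (4.06 to 4.50, adjusted p = 8.71e-12, limma). Here 12.4% of all genes tested were called higher and 16.2% lower, and the 3 genes ranked 1, 2 and 4 among the rises. CYS1 changed by -2.78 (-3.05 to -2.51, adjusted p = 1.03e-09, limma), the rank 12 among the falls. As ratios of the mean eRPKM, the rises were 44.6-fold, 44-fold and 27.5-fold, and CYS1 was 13.6-fold lower. In a fit without the siCtrl libraries of 48 h, the largest adjusted p of the 4 genes was 1.23e-07 (limma, CYS1). With the 2 siRAD21 OHT libraries averaged to 1 sample, the largest adjusted p of the 4 genes was 6.67e-08 (limma, CYS1).

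At 24 h the changes were smaller but of the same direction. In siCtrl cells ADCYAP1R1 rose by 3.40 on the log2 scale (3.11 to 3.69, adjusted p = 2.78e-09, limma), PDE1B by 3.42 (3.14 to 3.70, adjusted p = 1.93e-09) and CAMKV by 2.94 (2.72 to 3.16, adjusted p = 1.18e-09). They ranked 3, 2 and 5 among the rises, of which there were 3.68% of all genes tested. CYS1 changed by -1.60 (-1.87 to -1.33, adjusted p = 1.18e-06, limma) and ranked 29 among the falls, which made up 5.1%. In siRAD21 cells the log2 fold changes were 3.57 for ADCYAP1R1 (adjusted p = 1.47e-09, limma), 3.76 for PDE1B (adjusted p = 5.33e-10) and 3.54 for CAMKV (adjusted p = 1.38e-10), ranks 2, 1 and 3 among rises that comprised 4.29% of genes. CYS1 changed by -2.10 (adjusted p = 7.81e-08, limma), rank 7 among falls that comprised 7.62%. Each of these 12 effects kept its call in every alternative analysis that gave it a value.

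**Figure D2:**
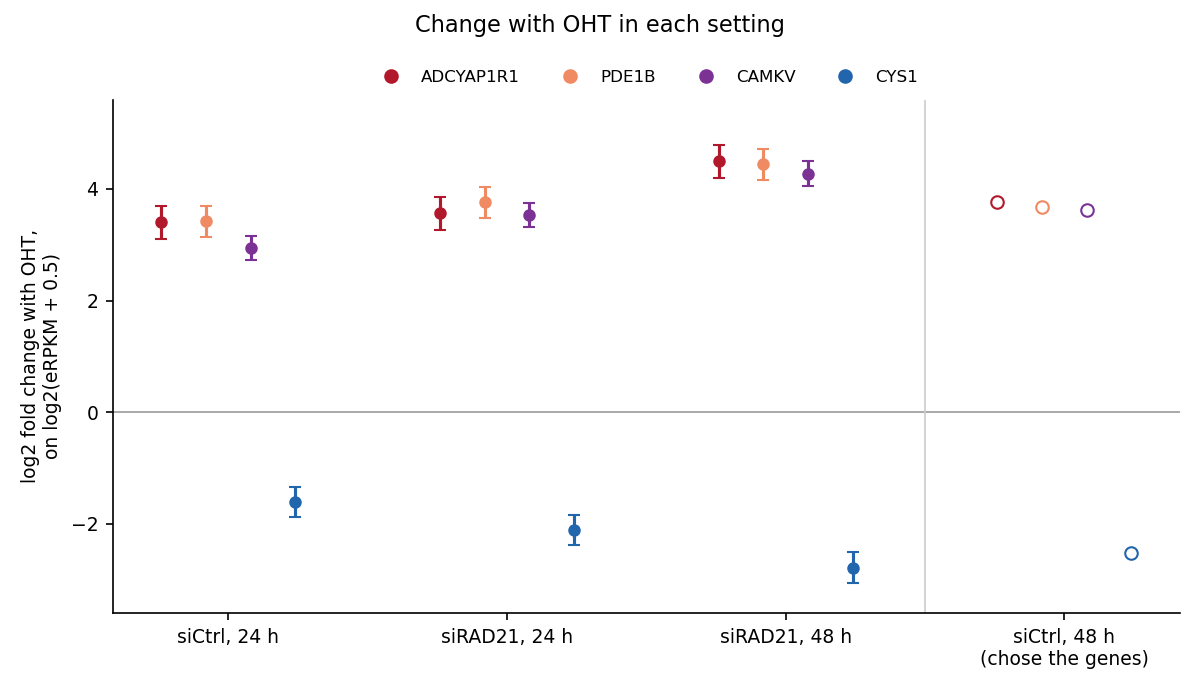
Log2 fold change with OHT of ADCYAP1R1, PDE1B, CAMKV and CYS1, on log2(eRPKM + 0.5), in siCtrl cells at 24 h and siRAD21 cells at 24 and 48 h, with 95% confidence intervals from limma (filled points). Open points give the siCtrl contrast of 48 h that chose the genes, with no interval. All values of the first 3 genes lie between 2.94 and 4.50, and those of CYS1 between -2.78 and -1.60.

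The comparison of all genes in siCtrl cells at 24 h and siRAD21 cells at 48 h, which share no library, places the 4 genes among the others. ADCYAP1R1, PDE1B and CAMKV lay at the upper right end of the plot of these 2 effects, together with CR2 (log2 fold changes 3.28 and 4.28) and FAM222A-AS1 (3.84 and 3.82). CYS1 lay at the lower left, among a looser group of genes.

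**Figure D3:**
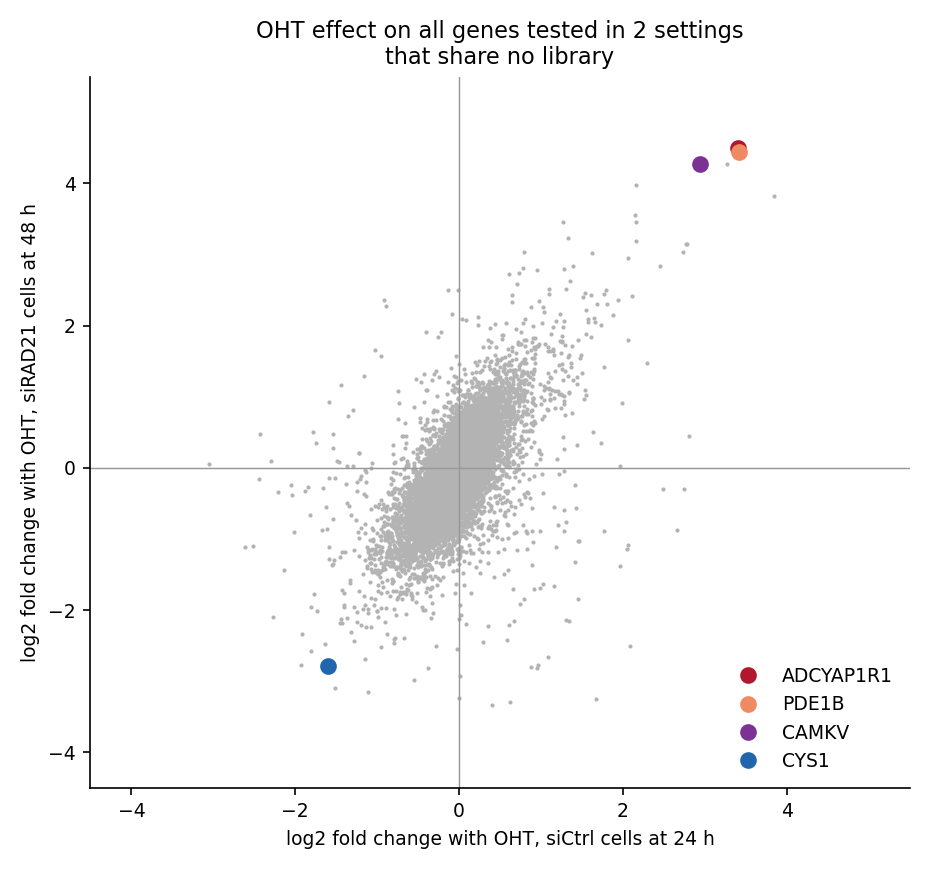
Log2 fold change with OHT of the 14993 genes tested, in siCtrl cells at 24 h (horizontal axis) and in siRAD21 cells at 48 h (vertical axis), with ADCYAP1R1, PDE1B, CAMKV and CYS1 as coloured points and all other genes in grey. The first 3 genes lie at the upper right, from 2.94 to 3.42 and from 4.28 to 4.50, and CYS1 at -1.60 and -2.78.

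Silencing of RAD21 for 24 h was compared next. Without OHT, CYS1 rose from 2.24 ± 0.273 eRPKM (mean ± SD, n = 2) to 4.09 ± 0.201 (n = 2), a log2 fold change of 0.74 (0.47 to 1.01, adjusted p = 0.000582, limma), and was the only one of the 4 to be called where 8.43% of all genes were. PDE1B changed by -0.44 (adjusted p = 0.0224, limma) and CAMKV by -0.34 (adjusted p = 0.0232, limma), both with no overlap between libraries but short of the fold threshold, and ADCYAP1R1 by 0.09 (-0.21 to 0.38, adjusted p = 0.692, limma). PDE1B passed the threshold, at -0.65, when replicate 1 of siCtrl at 24 h was left out. The direction for ADCYAP1R1 turned, to -0.035 without replicate 2 of siRAD21 at 24 h and to -0.095 with quantile normalization.

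With OHT, none of the 4 genes was called between siRAD21 and siCtrl cells at 24 h, where 6.47% of all genes were. The log2 fold changes were 0.25 for ADCYAP1R1 (-0.04 to 0.54), -0.10 for PDE1B (-0.38 to 0.18), 0.25 for CAMKV (0.03 to 0.47) and 0.24 for CYS1 (-0.03 to 0.51), with adjusted p from 0.106 to 0.679 (limma). Differences of these sizes remain possible within the intervals.

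Whether RAD21 silencing altered the response to OHT was tested as the interaction at 24 h. The OHT effect in siRAD21 cells minus that in siCtrl cells was 0.16 for ADCYAP1R1 (-0.25 to 0.58, adjusted p = 0.952, limma), 0.34 for PDE1B (-0.06 to 0.74, adjusted p = 0.872), 0.60 for CAMKV (0.28 to 0.91, adjusted p = 0.276) and -0.50 for CYS1 (-0.89 to -0.12, adjusted p = 0.666). Limma called 0 genes in this comparison (0.0%), with 906 at an unadjusted p below 0.05. With voom on recovered reads 19 genes were called and 1021 had an unadjusted p below 0.05. CAMKV passed with quantile normalization, at 0.85.

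At 48 h the effects of silencing use siCtrl libraries that chose the genes and are given as differences of mean log2 values alone. Without OHT, siRAD21 minus siCtrl was -0.53 for ADCYAP1R1, -1.0 for PDE1B, 0.24 for CAMKV and 0.20 for CYS1. With OHT it was 0.20, -0.23, 0.89 and -0.07. The mean of CAMKV with OHT was 1.88 times as high in siRAD21 as in siCtrl cells, at 31.1 against 16.6 eRPKM, and the libraries did not overlap. For PDE1B the ratio with OHT was 0.848.

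In siRAD21 cells, whose libraries did not choose the genes, the OHT effect was larger at 48 h than at 24 h for all 4 genes. The genes were chosen for a large OHT effect at 48 h, which favours genes with a larger effect at that time. This direction is therefore not independent of the choice. Over all genes tested, 4281 were called for OHT in siRAD21 cells at 48 h and 1785 at 24 h. The 4 genes differed in which group had a called change between the times. The difference of the effects was 0.93 for ADCYAP1R1 (0.52 to 1.34, adjusted p = 0.00627, limma), 0.68 for PDE1B (0.29 to 1.08, adjusted p = 0.0257), 0.74 for CAMKV (0.43 to 1.05, adjusted p = 0.00441) and -0.68 for CYS1 (-1.06 to -0.30, adjusted p = 0.0223). All were called, where 5.84% of all genes tested were.

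These 4 calls were less secure than the OHT effects themselves. With the siRAD21 OHT libraries of 48 h averaged to 1 sample, adjusted p was 0.0264 for ADCYAP1R1 and 0.0207 for CAMKV, but 0.0762 for PDE1B and 0.0637 for CYS1 (limma). With the siRAD21 pair of 24 h averaged as well, none of the 4 genes was called (adjusted p from 0.0574 to 0.164, limma), and the genes called over the whole table went from 875 to 374. The PDE1B call was lost without any 1 of the 8 libraries except replicate 1 of siRAD21 at 48 h, with values from 0.50 to 0.72. The CYS1 call was lost without either siRAD21 library of 24 h, either siRAD21 OHT library of 48 h, replicate 1 of siRAD21 at 48 h or replicate 1 of siRAD21 OHT at 24 h, with values from -0.72 to -0.62.

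The groups behind these differences were compared between the times. With OHT, CAMKV rose from 13.6 ± 0.0332 eRPKM (n = 2) at 24 h to 31.1 at 48 h, a log2 fold change of 1.16 (0.94 to 1.38, adjusted p = 1.2e-06, limma). ADCYAP1R1 rose from 15.0 ± 0.0710 (n = 2) to 21.8 eRPKM, by 0.52 (0.23 to 0.81, adjusted p = 0.00636, limma). PDE1B and CYS1 were not called with OHT, at -0.08 (-0.36 to 0.20) and -0.19 (-0.46 to 0.08), and 17.3% of all genes were. The sign of these small values turned with median centring for PDE1B and with quantile normalization for CYS1.

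Without OHT it was PDE1B that changed, falling from 1.11 ± 0.0559 eRPKM (n = 2) at 24 h to 0.459 ± 0.173 (n = 2) at 48 h. The log2 fold change was -0.76 (-1.04 to -0.48, adjusted p = 0.000231, limma), and 23.0% of all genes were called here. ADCYAP1R1 at -0.41, CAMKV at 0.42 and CYS1 at 0.49 had adjusted p of 0.0202, 0.00339 and 0.00475 (limma) but fell short of the fold threshold. They passed it without 1 library, ADCYAP1R1 at -0.53 (replicate 1 at 24 h left out), CAMKV at 0.51 (replicate 1 at 48 h) and CYS1 at 0.53 and 0.55 (replicate 2 at 24 h or at 48 h). In siCtrl cells, where there is no test, CYS1 without OHT was 2.28 times as high at 48 h as at 24 h, and the other genes had ratios from 0.822 to 1.28.

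Across the 18 libraries the 3 genes that rose had similar profiles of log2(eRPKM + 0.5). Pearson's r was 0.986 for ADCYAP1R1 with PDE1B, 0.985 for ADCYAP1R1 with CAMKV and 0.957 for PDE1B with CAMKV, and CYS1 correlated with them at -0.954, -0.973 and -0.942. These values are a description, since the libraries share 8 groups and most of the spread is that between libraries with and without OHT.

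Among the other 14992 genes tested, the profile most like that of ADCYAP1R1 belonged to CR2, the complement receptor CD21 of B cells, with r = 0.998 over 18 libraries. The group means of CR2 were 0.498 to 0.877 eRPKM without OHT and 11.7 to 18.9 with OHT, close to those of ADCYAP1R1. Next were GPD1L, a protein related to glycerol-3-phosphate dehydrogenase (0.988), and the antisense RNA FAM222A-AS1 (0.987). PDE1B was most like FERMT1, the integrin-binding protein kindlin-1 (0.998), RTN4RL1, a homologue of the Nogo receptor (0.993), and MATK, a kinase that inhibits Src kinases (0.99). FERMT1 rose with OHT from 2.74 to 10.2 eRPKM in siRAD21 cells at 48 h, a log2 fold change of 1.73 (adjusted p = 1.4e-09, limma). CAMKV was most like CR2 (0.986), ADCYAP1R1 (0.985) and GYG1, or glycogenin, which primes glycogen synthesis (0.985).

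The profile of CYS1 was closest to those of SERPINA1, the protease inhibitor alpha-1-antitrypsin (0.987), SH3BGRL (0.984) and LOXL4, a lysyl oxidase that crosslinks collagen (0.981). These 3 genes fell with OHT in all of the settings tested, by log2 fold changes from -0.59 (SH3BGRL, siRAD21 cells at 24 h) to -1.42 (LOXL4, siRAD21 cells at 48 h). They were expressed at higher levels than CYS1, and LOXL4 was at 76.1 eRPKM in siRAD21 cells at 48 h and at 28.1 with OHT.

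Gene lists of the pathways around the 4 genes were read as a description, and their counts were not tested against the share over all genes. For each list, members other than the 4 genes were counted in siRAD21 cells at 48 h, where 28.6% of all genes were called (12.4% higher, 16.2% lower) and the median log2 fold change of all genes was -0.02. Of the PACAP and secretin family of receptors and ligands, only 3 of 20 other genes were expressed enough to be tested. RAMP1 and RAMP2, which escort receptors of this family to the cell surface, fell by -1.12 (adjusted p = 0.000969, limma) and -0.79 (adjusted p = 0.00108) on the log2 scale. RAMP1 was not called at 24 h (0.02 in siCtrl and -0.19 in siRAD21 cells), and in siCtrl cells at 48 h its mean was higher with OHT, at 1.89 against 0.794 eRPKM. The ligand gene ADCYAP1 was at 0.0812 eRPKM or less in every library. The paralogous receptors VIPR1 and VIPR2, which also bind PACAP, had at most 1.10 and 0.504 eRPKM. ADCYAP1R1 was thus the receptor of this group with the highest level under OHT.

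Of the G proteins and adenylyl cyclases, 14 of 20 were tested, 3 rose and 3 fell, with a median of 0.0. The largest changes were the falls of GNAQ (-1.15, adjusted p = 9.36e-05, limma), whose product activates phospholipase C, of GNAO1, an inhibitory G protein (-1.04, adjusted p = 0.000427), and of the cyclase ADCY6 (-0.61, adjusted p = 0.000908). GNAO1 and ADCY6 were not called at 24 h in either cell population. In the list of protein kinase A, EPAC and CREB, 26 of 30 other genes were tested, 5 rose and 4 fell (median -0.13). SIK1, a kinase induced by cyclic AMP, rose from 8.78 to 26.2 eRPKM (1.53, adjusted p = 2.51e-07, limma), and PRKAR2B, a regulatory subunit of protein kinase A, from 6.46 to 14.6 (1.12, adjusted p = 1.09e-07). CREB3L1, a transcription factor tethered to the endoplasmic reticulum, fell from 2.17 to 0.654 eRPKM (-1.16, adjusted p = 0.000807). SIK1 and CREB3L1 were also called at 24 h in siCtrl and siRAD21 cells, in the same directions.

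Among the other cyclic nucleotide phosphodiesterases, 15 of 23 were tested, 2 rose and none fell, with a median of -0.06. PDE3B, which degrades cyclic AMP and is inhibited by cyclic GMP, rose from 1.39 to 3.35 eRPKM (1.03, adjusted p = 7.91e-07, limma). PDE2A, which cyclic GMP activates, rose from 7.06 to 10.3 (0.52, adjusted p = 3.14e-05, limma). At 24 h PDE3B was called higher in siCtrl (0.79) and siRAD21 cells (0.81), and PDE2A in neither (0.06 and -0.03). Of the paralogs of PDE1B, PDE1C was at 1.30 to 4.19 eRPKM over all libraries with no call (log2 fold change 0.06, adjusted p = 0.746, limma), and PDE1A did not exceed 0.113 eRPKM. Without OHT the group means of PDE1B lay between those of PDE1A and PDE1C, and with OHT they were the highest of the 3. Of calmodulin, its kinases and calcineurin, 25 of 30 were tested, 1 rose and 6 fell (median -0.12). The calcineurin regulators RCAN2 (-1.62, adjusted p = 4.6e-07, limma) and RCAN3 (-1.25, adjusted p = 9.04e-09) and CAMK2N1, an inhibitor of CaM kinase II (-0.85, adjusted p = 3.73e-07), fell. They fell in siCtrl and siRAD21 cells at 24 h as well. CAMK1 and CAMK1D, kinases related to CAMKV, were at 0.10 and -0.09 with no call, and CAMK1G was below 1.01 eRPKM.

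Of the partners of cystin, lipid-modified cargo of the cilium and genes of cystic kidney disease, 29 of 31 were tested, 1 rose and 4 fell, with a median of -0.05. PKD2, the gene of polycystin 2, fell from 21.4 to 13.2 eRPKM (-0.68, adjusted p = 4.08e-06, limma). ANKS6, a partner of inversin in the cilium, rose (0.61, adjusted p = 1.47e-05). Both changed by less than CYS1. At 24 h, 1 gene of this list, ANKS6, was called higher in siCtrl cells, where 3.68% of all genes were higher and 5.1% lower, and 0 were called in siRAD21 cells, where these shares were 4.29% and 7.62%.

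**Figure D4:**
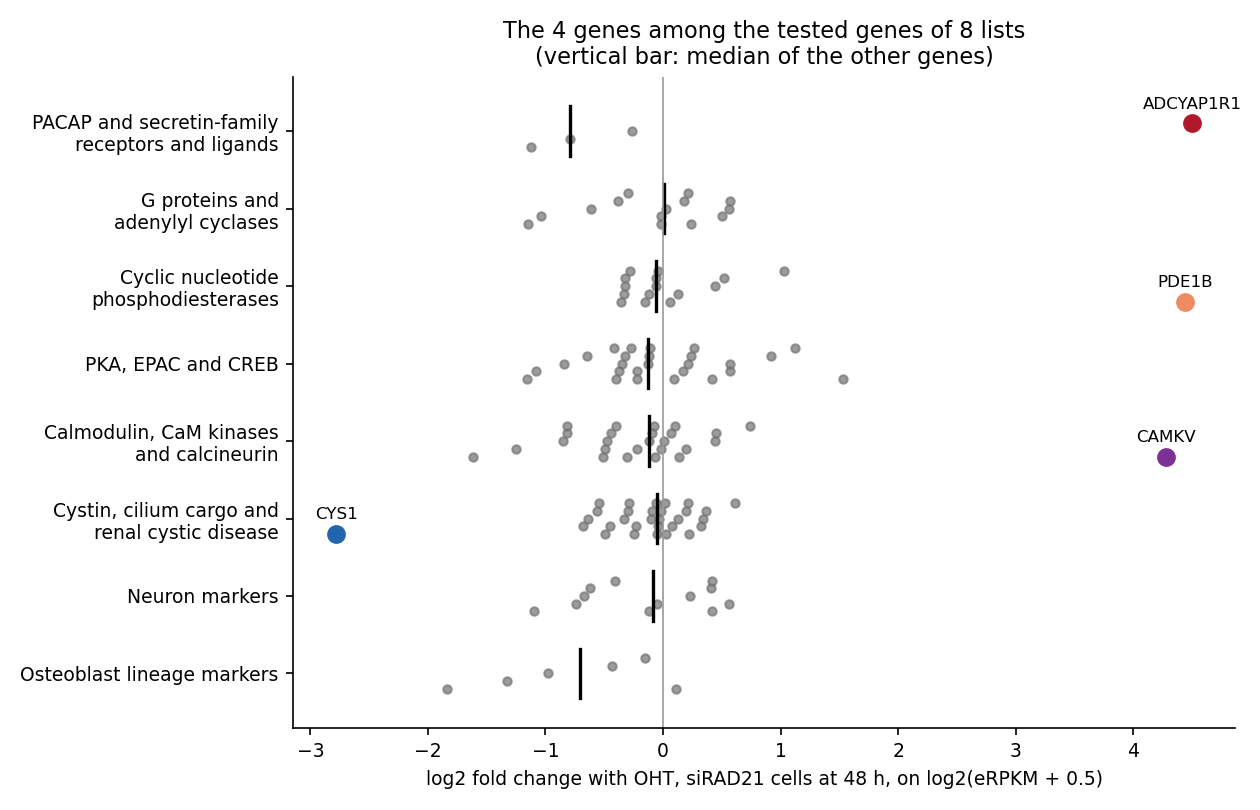
Log2 fold change with OHT in siRAD21 cells at 48 h, on log2(eRPKM + 0.5), of the tested genes of 8 lists (rows, grey points), with ADCYAP1R1, PDE1B, CAMKV and CYS1 as coloured points in their own lists and the median of the other genes as a bar. The medians of the first 6 lists lie from -0.79 to 0.0, and each of the 4 genes lies beyond all others of its list. The 4 genes were chosen for a large change with OHT, so nothing is read from that place.

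Since ADCYAP1R1, PDE1B and CAMKV are known from neurons, marker genes of neurons were read beside them. Of 24 markers 12 were expressed enough for the test. With OHT in siRAD21 cells at 48 h, 1 was higher and 4 were lower (median -0.08). Over all genes tested, 12.4% were higher and 16.2% lower there, and the count was not tested against these shares. SCG2 (-1.10, adjusted p = 2.25e-06, limma), TUBB3 (-0.74, adjusted p = 1.14e-06) and SYT1 (-0.67, adjusted p = 0.000914) fell. GAP43, named after its value was seen, was the marker that rose (0.56, adjusted p = 0.0152, limma). At 24 h, 2 markers were higher and 0 lower in siCtrl cells (median 0.07), where 3.68% of all genes were higher and 5.1% lower. In siRAD21 cells at 24 h, 2 were higher and 1 lower (median -0.17), where these shares were 4.29% and 7.62%. The 1 that was lower was SCG2 (-0.55, adjusted p = 0.00211, limma), and TUBB3 and SYT1 were not called at 24 h. In siCtrl cells at 48 h the log2 differences with OHT were -0.08 for SCG2, -0.37 for TUBB3 and -0.13 for SYT1. Markers of the osteoblast lineage, from which osteosarcoma derives, were in part absent: 6 of 12 were tested, SPARC was at 72.1 eRPKM on average, and SP7, COL1A2 and IBSP were at 0.189, 0.0441 and 0.0127. In siRAD21 cells at 48 h, COL1A1 (-1.84, adjusted p = 0.000577, limma), RUNX2 (-1.33, adjusted p = 5.16e-06) and SPP1 (-0.98, adjusted p = 8.98e-07) fell and none rose (median -0.71). The shares over all genes there were 12.4% higher and 16.2% lower, and this count was not tested against them. At 24 h RUNX2 was called lower in siCtrl and in siRAD21 cells, and COL1A1 and SPP1 were called in neither. The part of these marker changes in the results on the 4 genes was not tested.

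The genes on either side of the 4 loci were read as a description. Of the 16 tested genes that were nearest, 2 on each side of each gene, 3 were called in siRAD21 cells at 48 h, against 28.6% of all genes. The count was not tested against that share, and nothing is read from it for these loci. On the higher side of ADCYAP1R1 and PDE1B the nearest tested genes lay 1132.1 to 1443.0 kb away. Beside CAMKV, MON1A at a distance of 60.2 kb rose (1.26, adjusted p = 1.71e-07, limma) and UBA7 at 56.0 kb fell (-1.76, adjusted p = 3.68e-08), while TRAIP, the closest at 13.4 kb, was at 0.48 with no call. LSM5, at 1443.0 kb from ADCYAP1R1, rose by 0.57 (adjusted p = 3.93e-06, limma). No tested neighbour of PDE1B or CYS1 was called. The neighbours named here were chosen by position and call.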

How the data were processed

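In all, 18 RNA libraries of U2OS-MycER cells were sequenced after removal of ribosomal RNA (Ribo-Zero, TruSeq v2, which does not mark strand). The authors aligned reads to hg19 with TopHat2 2.0.8, removed PCR duplicates, which can lower the values of densely covered genes, counted exonic reads with featureCounts 1.4.5 and deposited eRPKM (RPKM over exons) for 23399 genes. Tool names and versions are from the submitters' notes. Groups came from the labels. Whole reads were recovered for 23398 genes (tolerance 0.003), a number that includes 1359 genes at 0 in every library. The depths were 9647501 to 12678599. No interval for counting error is given; intervals are from the fit.

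Tests used limma 3.58.1 (R 4.3.3) on log2(eRPKM + 0.5): 8 group means, a variance trend, 14993 genes with a mean of at least 1 eRPKM, Benjamini-Hochberg adjustment, and the study's thresholds (adjusted p below 0.05, log2 fold change past 0.5). The fit was tested on simulated data. Comparisons with siCtrl libraries of 48 h carry no p for the 4 genes. Alternatives were other pseudocounts (1 and 0.1), filters, scalings, fits, a replicate block, voom on recovered reads and leaving out each library. Averaging a second pair of near-identical libraries and crossed replicate numbers were added after seeing the data. Deviations of same-numbered siCtrl and siCtrl OHT libraries of 48 h correlated at 0.258, 0.130 and 0.157, a contrast not tested here. The correlations were -0.134 for siCtrl at 24 h, -0.064 for siRAD21 at 24 h and 0.026 for siRAD21 at 48 h. Libraries of unlike number were not compared, so whether replicate numbers mark pairs is not known.

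The 4 genes and the gene lists were chosen with earlier results of these data known. Named genes were the 4 genes, PPP1R1A, the 3 genes most correlated with each, their neighbours in rank, up to 3 called genes per list with the largest change, paralogs, the ligand ADCYAP1 and RAD21; flanking genes were added after seeing the data. A gene that this rule names is not reported here. Positions are from GENCODE on GRCh37, promoters from RefSeq (3 of the 4 genes matched). Tables and figures were made with Python 3.11.15, numpy 2.4.6, pandas 2.3.3 and matplotlib 3.10.9.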

Additional observations from a re-analysis of the deposited data

Results flagged for a closer look

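The OHT effect in siRAD21 cells differed between 48 and 24 h by the test of the difference itself for all 4 genes. The log2 differences were 0.93 for ADCYAP1R1, 0.68 for PDE1B, 0.74 for CAMKV and -0.68 for CYS1. The genes were chosen for a large OHT effect at 48 h, so the direction of these differences is not independent of the choice. With the siRAD21 OHT libraries of 48 h averaged to 1 sample, PDE1B (adjusted p = 0.0762, limma) and CYS1 (adjusted p = 0.0637) were not called, and with the siRAD21 pair of 24 h averaged as well, none of the 4 was. Between the times, CAMKV (13.6 and 31.1 eRPKM) and ADCYAP1R1 (log2 fold change 0.52) were called with OHT. PDE1B was called without OHT (1.11 and 0.459 eRPKM), and for CYS1 neither change was called. Without OHT, ADCYAP1R1 (-0.41), CAMKV (0.42) and CYS1 (0.49) missed only the fold threshold (adjusted p = 0.0202, 0.00339 and 0.00475, limma). The same differences in siCtrl cells involve the libraries that chose the genes and were not tested.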

How the results depend on the processing

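The 12 OHT effects of the 4 genes were recomputed 225 times under the alternatives, and all 225 kept direction and call, with a largest adjusted p of 0.00299 (limma). Over all comparisons, 660 of 707 recomputed values of the 4 genes kept their call, 23 lost it, 20 gained it and 4 changed direction. CYS1 has no value with a minimum mean of 5 eRPKM. The changed directions were ADCYAP1R1 with RAD21 silencing at 24 h (-0.095 with quantile normalization, -0.035 to 0.208 leaving out 1 library) and the 48 h against 24 h values with OHT of PDE1B (0.010 with median centring) and CYS1 (0.046 with quantile normalization).

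The OHT effect at 48 h minus 24 h lost its call for ADCYAP1R1 with 2 pairs averaged (0.936), for PDE1B with a pseudocount of 1 (0.463), with 1 or 2 pairs averaged (0.684, 0.685) and leaving out any 1 library except replicate 1 of siRAD21 at 48 h (0.499 to 0.869 with that one included), for CAMKV with 2 pairs averaged (0.743) and voom (0.548), and for CYS1 with quantile normalization (-0.494), 1 or 2 pairs averaged (-0.677, -0.676), voom (-0.901) and leaving out 1 library, other than replicate 2 of siRAD21 at 48 h or of siRAD21 OHT at 24 h (-0.738 to -0.617 with these included). Genes called in this comparison were 374 with 2 pairs averaged, against 875. The cause was not tested, apart from the fewer samples in averaged fits.

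A minimum mean of 5 eRPKM, which tests 10906 genes, called 2794 (OHT in siRAD21 at 48 h, against 4281), 742 (OHT in siCtrl at 24 h, against 1316), 1024 (OHT in siRAD21 at 24 h, against 1785), 740 and 610 (silencing at 24 h without and with OHT, against 1264 and 970) and 1654 (48 h against 24 h in siRAD21 OHT, against 2593). The interaction at 24 h, with 0 calls, had 5 with all genes above 0, 12 with quantile normalization, 4 without the siCtrl groups of 48 h and 19 with voom. The replicate block gave 4297 genes for OHT in siRAD21 cells at 48 h and 4 for the interaction, and it changed no call of the 4 genes. Whether the same-numbered libraries tested were pairs is not known (correlation of deviations -0.134, -0.064 and 0.026). With siCtrl numbers of 24 h crossed in the block, the interaction had 10. Depth limits CYS1 with OHT, at 10 to 19 reads per library.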
